A study of Mus musculus with 24 samples.

Results

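Lungs of mice taken 72 h after irradiation of the thorax were compared with lungs taken 12 h after it, on 6 of the 24 arrays of the series. The arrays are those whose labels give lung and 72 h or lung and 12 h, 3 of each, and the comparison was picked because the arrays of a strain at these times were of like quality. Each of them carried RNA from a pool of 3 females, aged 12 to 13 weeks, of a single inbred strain, and each strain (A/J, then C57BL/6J, then C3H/HeMs) gave 1 array at each time. Values by strain are given in that order throughout. All of these mice had received a single local dose of 10 Gy of gamma rays to the thorax. Skin taken 72 h and 12 h after 30 Gy to the hind leg, from the same strains and in pools of the same size, served to compare tissues. Lungs of C57BL/6J mice without irradiation and at 1 h served to place the levels. For Saa3, unirradiated lungs of A/J and C3H/HeMs are given as well. Each pool was hybridised in 2 colours against 1 common mixture of commercial RNA from 10 organs, so a level here is a log2 ratio of lung to that mixture, and a difference is the log2 ratio at 72 h minus that at 12 h in the same strain. The comparison asks how the transcripts of irradiated lung at 3 days differ from those at 12 h, and since both groups were irradiated it holds no unirradiated baseline of its own.

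Ionising radiation breaks DNA and activates p53, a transcription factor that induces genes of cell cycle arrest, DNA repair and cell death and also genes that switch p53 itself off again. In lung, alveolar type II and club cells, the endothelium of the dense capillary bed and resident lymphocytes are the cells best known to be affected early, and an early wave of cytokines and acute phase proteins is known to precede a later phase of tissue remodelling in which matrix genes take part. The lung, like other organs, also has its own circadian clock and is under the daily rhythm of glucocorticoid hormones. The 2 times lie 60 h apart, which is 2.5 days, and the clock time at which mice were killed was not given in the sources used here.

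Promoters of 4 genes on which the account below turns are shown first, because each carries a motif of a factor known to act on genes of its group. Each sequence is the 250 bases before the annotated start, from RefSeq on GRCm38.p6, written 5′ to 3′ on the strand of the gene. Capitals mark the matches, which were searched on both strands, and no 2 matches overlap. A match is a run of letters and does not show binding.
Ccng1, chr11:40755287-40755536, minus strand, p53 half-site in capitals: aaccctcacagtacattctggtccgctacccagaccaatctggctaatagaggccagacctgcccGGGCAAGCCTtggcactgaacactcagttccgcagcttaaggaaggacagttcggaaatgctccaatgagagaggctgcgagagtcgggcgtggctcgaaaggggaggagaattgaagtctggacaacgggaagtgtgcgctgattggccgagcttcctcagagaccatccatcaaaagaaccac
Aurka, chr2:172370571-172370820, minus strand, CCAAT in capitals: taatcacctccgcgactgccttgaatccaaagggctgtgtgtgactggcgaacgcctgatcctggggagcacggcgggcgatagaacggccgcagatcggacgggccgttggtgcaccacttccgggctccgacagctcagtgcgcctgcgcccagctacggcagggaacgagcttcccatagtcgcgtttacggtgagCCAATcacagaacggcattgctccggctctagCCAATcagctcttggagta
Nr4a1, chr15:101266596-101266845, plus strand, TGACGCA or its reverse complement in capitals: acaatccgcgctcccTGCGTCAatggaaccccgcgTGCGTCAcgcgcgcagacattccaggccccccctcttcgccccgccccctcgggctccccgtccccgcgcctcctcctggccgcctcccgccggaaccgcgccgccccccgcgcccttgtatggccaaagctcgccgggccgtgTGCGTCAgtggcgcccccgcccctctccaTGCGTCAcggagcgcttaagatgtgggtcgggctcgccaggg
Saa3, chr7:46715677-46715926, minus strand, TTGCNNAA or its reverse complement in capitals: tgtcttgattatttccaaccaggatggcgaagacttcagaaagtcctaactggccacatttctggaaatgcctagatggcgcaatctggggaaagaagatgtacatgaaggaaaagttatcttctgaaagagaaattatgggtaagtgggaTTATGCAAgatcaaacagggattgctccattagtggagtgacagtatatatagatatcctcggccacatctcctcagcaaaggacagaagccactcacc
The Ccng1 promoter, of cyclin G1, holds 1 p53 half-site whose first base lies 185 bases before the start, and 7.1% of 32851 mouse promoters of this length hold such a half-site. The Aurka promoter, of Aurora kinase A, holds 2 CCAAT boxes, the motif of the factor NF-Y, at 51 and 19 bases before the start, and 10.1% of promoters hold 2 or more. The promoter of the early response gene Nr4a1 holds 4 CRE-like elements at 235, 215, 71 and 42 bases before the start. Of all promoters 1.7% hold any and 0.00304% hold 4 or more, which is the Nr4a1 promoter alone. Each motif was set for the gene shown, so nothing is read from how rare it is. The promoter of the acute phase gene Saa3 holds 1 C/EBP-type site at 99 bases before the start, and 9.6% of promoters hold that motif.

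The 6 arrays read as lung at both times. Among 20 genes of the lung epithelium, 17 had a mean ratio above the reference at 72 h and 18 at 12 h, and all 21 measured endothelium genes lay above it at each time, whereas none of 35 skeletal and heart muscle genes and none of 7 keratinocyte genes did. Within a strain the 72 h and 12 h arrays correlated at 0.939, 0.933 and 0.940 over 8750 features. Ratios of exactly 0 stood on 607 and 674 probes of the A/J arrays at 72 h and 12 h, on 115 and 183 of the C3H/HeMs arrays, and on 3 and 8 of the C57BL/6J arrays, so the strains differed in array quality but the 2 times of a strain were alike. Directions in all 3 strains were therefore counted over the 7863 features with no ratio at exactly 0 or at the limit of the scale on any of the 6 arrays.

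No feature passed the test. With limma, paired by strain, 0 of 8750 features (0%) had an adjusted p under 0.05, and the lowest adjusted p was 0.263, for Nefm. An unadjusted p under 0.05 was reached by 883 features (10.1%), with 356 higher (4.07%) and 527 lower (6.02%) at 72 h. By chance alone 437.5 of 8750 would be reached on average, and such a count varies more widely where features vary together. The count of 883 became 184 without the pairing, 509 in a fit on all 12 lung arrays and 536 without the C3H/HeMs pair. With 3 pairs of arrays the precision is low. The spread behind each p-value is that of the paired differences among 3 strains, as moderated by limma, rather than that among mice. In all that follows, therefore, higher and lower describe the measured values, and no gene is called.

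The strains had little in common over all features. The differences of A/J correlated at 0.085 with those of C57BL/6J and at 0.186 with those of C3H/HeMs, and those of C57BL/6J with C3H/HeMs at 0.216 (8750 features, each difference from 1 pair of arrays). All 3 strains were higher at 72 h for 1273 of 7863 features (16.2%) and lower for 1363 (17.3%). Large differences shared by the strains were mostly in the lower direction. At least 1.5-fold in every strain, 9 features (0.114%) were higher and 46 (0.585%) lower at 72 h, and at least 2-fold, 1 was higher (0.0127%) and 10 lower (0.127%). Features far below the reference held many of them. A mean ratio between -8 and -2 over the 6 arrays was that of 13 of the 46 and 2 of the 9, but of only 508 of 8750 features. The single feature higher by 2-fold was Gatm. The 10 lower were Aurka, Elavl4, Fam184b, Nefm, Noxred1, Saa3, the unnamed transcript AW551984, which was chosen after its values were seen, and 3 probes with no gene symbol. All 72 h arrays lay above all 12 h arrays for 220 features (2.8%) and below for 214 (2.72%).

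**Figure D1:**
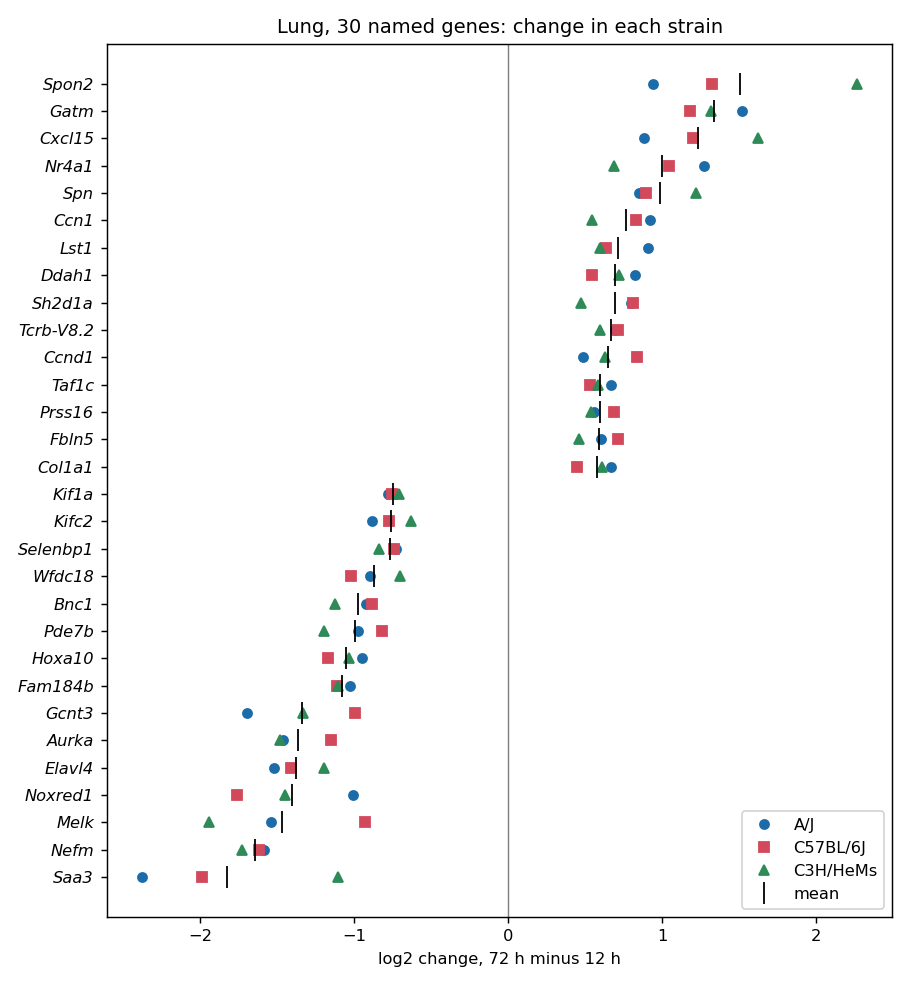
Log2 difference at 72 h minus 12 h in lung for the 30 genes named by smallest p, with 1 point per strain and a bar at the mean of 3 strains. The 15 genes right of 0 were higher at 72 h and the 15 left of 0 lower in every strain, as the naming rule requires, and the means run from 1.51 for Spon2 to -1.82 for Saa3.

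Genes induced by p53 were more often lower than higher at 72 h. Of 13 measured targets, 10 lay above the reference on average at 72 h and 11 at 12 h. In all 3 strains 7 were lower and 2 higher (17.3% and 16.2% over all features). With an unadjusted p under 0.05, 4 were lower and 0 higher (6.02% and 4.07% over all features). Neither this list nor those below were tested against these shares. The median difference of the list was -0.17, with -0.24, -0.03 and -0.23 by strain, against -0.005 over all features. Ccng1, a p53 target that takes part in its feedback and whose promoter is shown above, had log2 ratios of 1.05, 0.51 and 0.84 at 72 h, against 1.57, 1.02 and 1.60 at 12 h. It was lower in every strain (difference -0.60 ± 0.12 SE as moderated by limma, 3 pairs, limma adjusted p = 0.389). The A/J level at 72 h nevertheless lay just above the C57BL/6J level at 12 h.

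Trp53inp1, a nuclear protein that promotes p53 activity, was at 1.93, 1.44 and 1.17 at 72 h, against 2.24, 1.95 and 1.81 at 12 h (-0.49 ± 0.12 SE). Pmaip1, which encodes the pro-apoptotic protein Noxa, was at 1.98, 1.10 and 2.03 at 72 h, against 2.60, 1.80 and 2.29 at 12 h (-0.52 ± 0.14 SE). Ephx1, microsomal epoxide hydrolase, had the most even difference, of -0.35, -0.31 and -0.32 in the 3 strains, and all its 72 h levels (1.82, 1.86 and 2.11) lay below all its 12 h levels (2.17, 2.17 and 2.43). Polk, a DNA polymerase that copies past lesions, was also lower in every strain (-0.22 ± 0.11 SE, and -0.12 with quantile normalization). The groups did not overlap for Ephx1, and they overlapped for Ccng1, Trp53inp1, Pmaip1 and Polk.

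The best known arrest and feedback genes of p53 differed little between the times. Cdkn1a, the p21 gene, whose product halts the cell cycle by blocking its kinases, was at 3.52, 3.32 and 3.37 at 72 h, against 3.87, 3.54 and 3.32 at 12 h, a difference of -0.17 ± 0.13 SE that became 0.04 with quantile normalization. Mdm2, the ubiquitin ligase that degrades p53, was at 1.66, 1.12 and 1.27 at 72 h, against 1.71, 1.15 and 1.5 at 12 h (-0.11 ± 0.11 SE, and -0.016 with quantile normalization). Gadd45a, a damage-induced growth arrest gene (0.21 ± 0.12 SE), and Sesn1, a sestrin that restrains growth signalling (0.16 ± 0.11 SE), were the 2 members higher in all 3 strains. The death receptor gene Tnfrsf10b was at 1.27, 0.10 and 0.82 at 72 h, against 1.02, -0.0018 and 0.88 at 12 h, so its A/J and C3H/HeMs levels stayed well above those of C57BL/6J at both times. Ei24 (-0.21 ± 0.15 SE) and Gtse1 (-0.14 ± 0.11 SE) had standard errors close to their differences.

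Acute phase and inflammatory genes held the largest difference among the 139 genes that the naming rule gave. Saa3, an acute phase serum amyloid, was at -1.99, -2.69 and -2.31 at 72 h, against 0.39, -0.70 and -1.21 at 12 h, so every 72 h array lay below every 12 h array (-1.82 ± 0.26 SE, 3.54-fold lower, limma adjusted p = 0.354). The strains differed in size, from -2.37 in A/J to -1.10 in C3H/HeMs. Ccl22, a chemokine of dendritic cells and macrophages that attracts T cells through CCR4, was at -0.40, -0.29 and -0.54 at 72 h, against 0.27, 1.08 and 0.90 at 12 h (-1.16 ± 0.19 SE), again with no overlap.

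**Figure D2:**
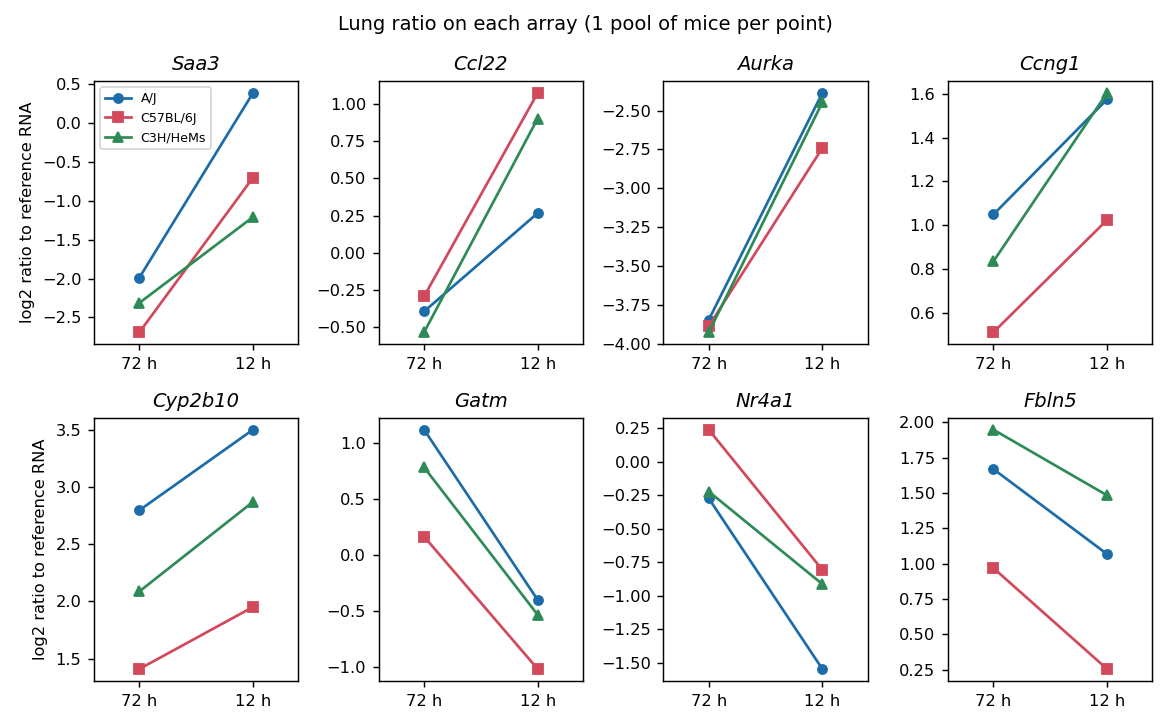
Log2 ratio of lung to the reference RNA for 8 genes on each of the 6 arrays, with 72 h left of 12 h in each panel and a line joining the 2 arrays of a strain. Each vertical axis has its own range. Saa3, Ccl22, Aurka, Ccng1 and Cyp2b10 are lower at 72 h in all 3 strains, and Gatm, Nr4a1 and Fbln5 are higher.

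Tnf, the cytokine tumour necrosis factor, was at -0.20, -0.75 and -0.57 at 72 h, against 0.67, -0.01 and -0.31 at 12 h (-0.62 ± 0.16 SE). Ccl8, a monocyte chemokine, was lower by less (-0.50 ± 0.12 SE). Of the 31 inflammatory genes measured, 13 were lower and 5 higher in all 3 strains (17.3% and 16.2% over all features). With an unadjusted p under 0.05, 10 were lower and 2 higher (6.02% and 4.07% over all features). Their median difference was nevertheless only -0.06, with -0.13, -0.19 and -0.07 by strain. It became 0.01 with quantile normalization, -0.18 without the A/J pair and -0.17 without the C57BL/6J pair, so the level of the list as a whole rested on the strain and the scaling. Neutrophil genes had a median of -0.18 over 8 members and one of -0.07 without the A/J pair. Of the 8, 3 were lower and 0 higher in all 3 strains (17.3% and 16.2% over all features). Among them S100a8, a calcium-binding alarmin, was at 2.42, 0.44 and 0.25 at 72 h, against 2.89, 1.29 and 0.50 at 12 h (-0.52 ± 0.16 SE). Lung is a mixture of cells, and in such bulk RNA fewer cells of a type and less RNA per cell cannot be told apart.

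Genes known to be induced by glucocorticoids had the lowest median of the 25 lists. Of 14 measured, 8 were lower and 1 higher in all 3 strains (17.3% and 16.2% over all features). With an unadjusted p under 0.05, 5 were lower and 0 higher (6.02% and 4.07% over all features). The median difference was -0.39, with -0.30, -0.22 and -0.53 by strain. Tsc22d3, which encodes the glucocorticoid-induced leucine zipper protein, was at 1.95, -0.12 and -0.16 at 72 h, against 2.31, 0.64 and 1.51 at 12 h. Its difference of -0.93 ± 0.27 SE was mostly that of C3H/HeMs (-1.67), with -0.36 in A/J. Fkbp5, a co-chaperone of the glucocorticoid receptor, was at -0.12, -2.15 and -1.84 at 72 h, against -0.0038, -1.37 and -1.04 at 12 h (-0.57 ± 0.18 SE), again with A/J nearly level. Lcn2, lipocalin 2, which also belongs to the neutrophil genes, had a small and even difference with no overlap, at -0.58, -0.57 and -0.75 at 72 h, against -0.21, -0.21 and -0.16 at 12 h. Mt1, the metal-binding protein metallothionein 1, had its largest difference in A/J (-1.49, -0.20 and -0.66 by strain). The same list had a median of -0.66 in skin over the same times. It was not the lowest list there, since inflammatory (-0.70), MHC class II (-0.68) and interferon response genes (-0.67) had lower skin medians.

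**Figure D3:**
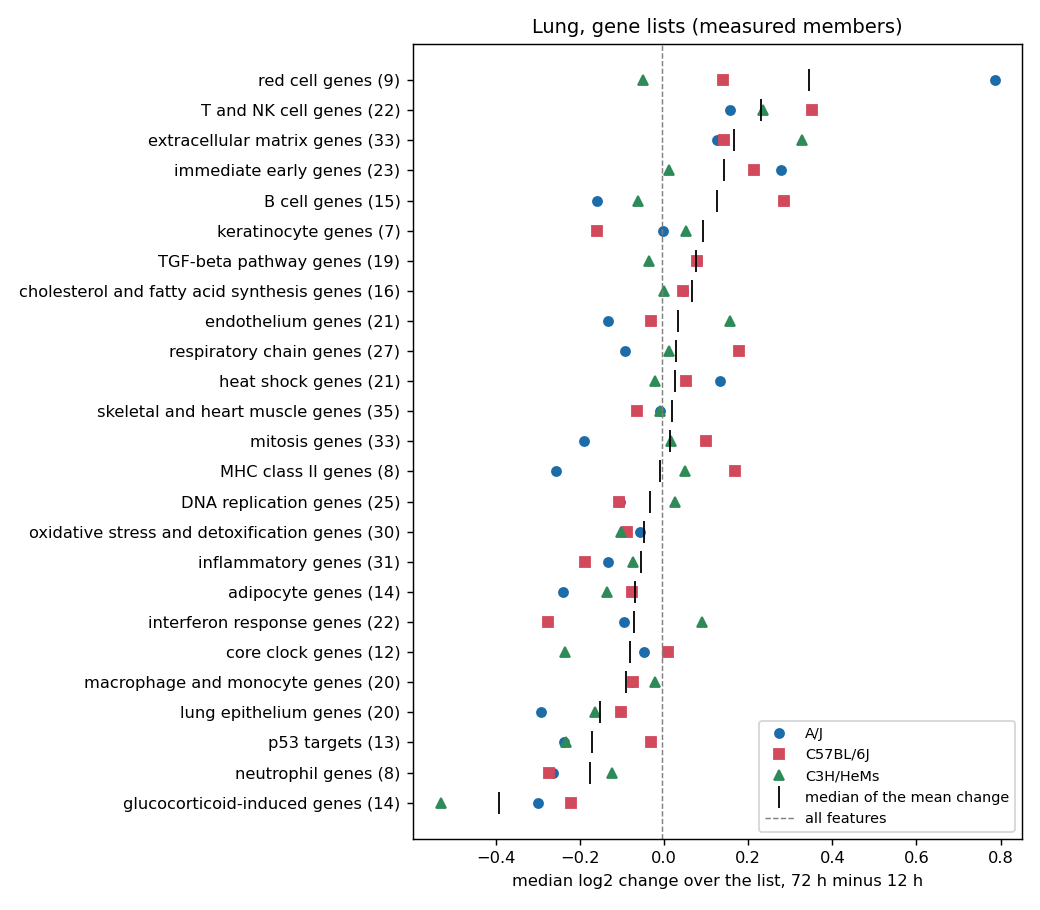
Median log2 difference at 72 h minus 12 h in lung over the measured members of 25 gene lists, with the number measured in brackets, 1 point per strain and a bar at the median of the mean differences. The dashed line is the median of all 8750 features, -0.005. Glucocorticoid-induced genes have the lowest bar (-0.39), red cell genes the highest (0.35, with strains from -0.05 to 0.79).

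More genes of the lung epithelium were lower than higher at 72 h, and the size of the list median depended on the strain. Of 20 measured, 8 were lower and 3 higher in all 3 strains (17.3% and 16.2% over all features). With an unadjusted p under 0.05, 7 were lower and 1 higher (6.02% and 4.07% over all features). The median difference was -0.15, with -0.29, -0.10 and -0.17 in the strains. The list median was -0.06 with quantile normalization and -0.03 without the C3H/HeMs pair. Sftpd, surfactant protein D of type II and club cells, was at 3.20, 3.24 and 2.90 at 72 h, against 3.86, 3.70 and 3.36 at 12 h, with no overlap (-0.53 ± 0.11 SE). Ctsh, a protease that processes surfactant protein in type II cells, was at 0.49, 0.32 and -0.01 at 72 h, against 1.17, 0.73 and 0.51 at 12 h, also with no overlap. Cyp2b10, a cytochrome P450 of club cells, was at 2.80, 1.41 and 2.09 at 72 h, against 3.50, 1.95 and 2.87 at 12 h (-0.68 ± 0.11 SE). Cxcl15, a chemokine of mouse lung epithelium that attracts neutrophils, went the other way and is described with the genes that were higher.

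The same direction was seen among genes of detoxification. Of 30 measured oxidative stress and detoxification genes, 13 were lower and 5 higher in all 3 strains (17.3% and 16.2% over all features). An unadjusted p under 0.05 was reached by 8 lower and 2 higher members (6.02% and 4.07% over all features). These 30 genes had a median difference of -0.05, which became -0.10 once the C57BL/6J pair was left out. Gsta2, a glutathione transferase, was at -0.66, -1.19 and -0.55 at 72 h, against 0.35, -0.20 and -0.07 at 12 h, and every 72 h array lay below every 12 h array (-0.83 ± 0.15 SE). Gsta3, of the same enzyme family, was likewise separate (-0.46 ± 0.13 SE). Aldh1a1, a retinaldehyde dehydrogenase counted in both lists, was at 1.49, 1.07 and 1.02 at 72 h, against 1.99, 1.38 and 1.66 at 12 h. Sod2, the superoxide dismutase of mitochondria, was lower by a similar amount in each strain (-0.40, -0.41 and -0.29). Selenbp1, a selenium-binding protein named by its small p, had one of the most even differences, of -0.73, -0.74 and -0.84, at levels of 2.11, 1.44 and 1.36 at 72 h, against 2.84, 2.18 and 2.20 at 12 h.

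The mitotic kinase genes Aurka and Melk were lower at 72 h, but mitosis genes as a list were not. Aurka, whose kinase drives centrosome maturation and spindle assembly, was at -3.85, -3.89 and -3.93 at 72 h, against -2.39, -2.74 and -2.45 at 12 h, with differences of -1.46, -1.15 and -1.48 (mean -1.36 ± 0.13 SE, 2.57-fold lower, limma adjusted p = 0.316). The 72 h levels of the 3 strains lay within 0.1 of each other and far below every 12 h level. Melk, a kinase of dividing cells, was at -1.13, -1.46 and -1.67 at 72 h, against 0.41, -0.53 and 0.27 at 12 h (-1.47 ± 0.22 SE). Mad2l1, of the spindle checkpoint, was lower by less (-0.40 ± 0.13 SE), and Ube2c, an ubiquitin-conjugating enzyme of mitotic exit, was higher (0.34 ± 0.13 SE).

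Of the 33 mitosis genes measured, 32 could be counted by direction. Of these 5 were higher and 4 lower in all 3 strains (16.2% and 17.3% over all features). The median difference was 0.01 over the list and -0.19, 0.10 and 0.02 in the strains. The 25 DNA replication genes had a median of -0.03. Among 24 counted, 7 were lower and 3 higher in all 3 strains (17.3% and 16.2% over all features). Mcm10, a replication initiation factor, was at -2.58, -1.65 and -1.77 at 72 h, against -1.57, -0.64 and -1.30 at 12 h (-0.83 ± 0.16 SE), with no overlap. Pole, the catalytic subunit of DNA polymerase epsilon (-0.70 ± 0.19 SE, and -0.46 without A/J), and Prim2, a subunit of primase (-0.38 ± 0.13 SE), were lower too, while Uhrf1, which helps to copy DNA methylation, was higher (0.44 ± 0.18 SE), by 0.36, 0.10 and 0.86 by strain and 0.23 without C3H/HeMs. Ccnd1, cyclin D1 of the G1 phase, was higher at 72 h with no overlap, at 1.11, 1.36 and 1.56, against 0.62, 0.52 and 0.93 at 12 h (0.65 ± 0.12 SE).

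Several early response genes were higher at 72 h than at 12 h. Nr4a1, an orphan nuclear receptor that stimuli induce within minutes to hours and whose promoter with 4 CRE-like elements is shown above, was at -0.27, 0.24 and -0.22 at 72 h, against -1.54, -0.81 and -0.91 at 12 h (1.00 ± 0.15 SE, limma adjusted p = 0.354). Ccn1, a matricellular protein, was at 1.01, 1.06 and 1.15 at 72 h, against 0.09, 0.22 and 0.61 at 12 h (0.77 ± 0.13 SE). Klf2, a transcription factor of quiescent endothelium and T cells, was at 1.77, 1.41 and 1.57 at 72 h, against 1.07, 1.06 and 1.03 at 12 h. For these 3 genes every 72 h array lay above every 12 h array. Dusp6, a phosphatase that is induced by and switches off ERK, had an even difference of 0.40, 0.42 and 0.39. Of the 23 immediate early genes measured, 22 were counted by direction. In all 3 strains 9 were higher and 3 lower (16.2% and 17.3% over all features). With an unadjusted p under 0.05, 6 were higher and 0 lower (4.07% and 6.02% over all features). The median difference was 0.14, with 0.28, 0.21 and 0.01 by strain.

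Extracellular matrix genes were the list with the most members higher in every strain. Of 33 measured, 16 were higher and 2 lower in all 3 strains (16.2% and 17.3% over all features). With an unadjusted p under 0.05, 11 were higher and 1 lower (4.07% and 6.02% over all features). Their median difference was 0.17, with 0.13, 0.14 and 0.33 by strain, and 0.12 with single probes in place of gene means. Fbln5, fibulin 5 of elastic fibres, was at 1.67, 0.97 and 1.95 at 72 h, against 1.07, 0.26 and 1.48 at 12 h (0.59 ± 0.11 SE). Col1a1, a chain of type I collagen, was far below the reference and was at -2.87, -1.89 and -1.94 at 72 h, against -3.54, -2.34 and -2.56 at 12 h (0.58 ± 0.11 SE). Mmp14, a membrane-bound protease that cuts collagen, was at -0.04, 0.04 and 0.11 at 72 h, against -0.49, -0.40 and -0.51 at 12 h, with no overlap. The largest difference of the list was that of Tnc, tenascin C of remodelling matrix, but its strains were uneven, at 2.41, 0.71 and 1.04.

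Genes of TGF-beta signalling, the pathway best known for inducing matrix genes, had a median of 0.08 over 19 members. None of them reached an unadjusted p under 0.05 (10.1% over all features). Tgfb2, one of its ligands, had a difference of 0.28, 0.29 and 0.23 in the strains, and Tgfb3, another ligand, of 0.16, 0.08 and 0.37. Smad2, a signal transducer of the pathway, was lower (-0.41 ± 0.20 SE), with most of it in C3H/HeMs (-0.94). Its deposited ratio on the C3H/HeMs array at 72 h was exactly 0, and the C3H/HeMs difference rests on that value. Without C3H/HeMs the Smad2 difference was -0.14. Acvrl1, an endothelial receptor of this family, differed by 0.18 ± 0.11 SE.

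Genes of T and NK cells were higher at 72 h in all 3 strains by their medians. Of 22 measured, 7 were higher and 1 lower in all 3 strains (16.2% and 17.3% over all features). With an unadjusted p under 0.05, 6 were higher and 0 lower (4.07% and 6.02% over all features). The median difference was 0.23, with 0.16, 0.35 and 0.23 in the strains. It was 0.11 without the C57BL/6J pair. Nkg7, a granule protein of cytotoxic lymphocytes, was at -0.70, 0.15 and 0.41 at 72 h, against -1.10, -0.65 and 0.06 at 12 h (0.51 ± 0.14 SE). Gzma, granzyme A, was at -0.63, 0.52 and 1.84 at 72 h, against -0.78, -0.32 and 1.23 at 12 h (0.53 ± 0.17 SE), and its strains lay further apart than its times. Ccl5, a chemokine made by T and NK cells (0.55 ± 0.17 SE), and Klrd1, the CD94 receptor of NK cells (0.36 ± 0.12 SE), were higher in each strain as well.

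Leukocyte genes outside these lists stood among the 15 named by smallest p in the higher direction, a grouping made after their values were seen. Spn, the leukocyte surface sialoglycoprotein CD43, was at 0.18, 0.19 and 0.90 at 72 h, against -0.68, -0.70 and -0.31 at 12 h, with no overlap (0.99 ± 0.13 SE). Tcrb-V8.2, a variable segment of the T cell receptor beta chain, was at -1.88, -1.89 and -1.61 at 72 h, against -2.57, -2.61 and -2.20 at 12 h, also with no overlap (0.67 ± 0.11 SE). Sh2d1a, the adaptor SAP of T and NK cells (0.69 ± 0.13 SE), and Lst1, a leukocyte transcript (0.72 ± 0.12 SE), were higher in all 3 strains with overlapping groups.

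Among the other blood cell lists, B cell genes had a median of 0.13 over 15 members, with -0.16, 0.28 and -0.06 by strain, and macrophage and monocyte genes one of -0.09 over 20 members (-0.08, -0.07 and -0.02 by strain), which was 0.0034 without the A/J pair. Of the 15 B cell genes, 2 were higher and 1 lower in all 3 strains (16.2% and 17.3% over all features). With an unadjusted p under 0.05, 2 were higher and 0 lower (4.07% and 6.02% over all features). These 2 were Fcmr, a receptor for IgM of B cells (0.42 ± 0.14 SE), and Spib, a transcription factor of B cells (0.53 ± 0.20 SE). Spib was nearly level in C3H/HeMs (0.003). Chil3, a secreted chitinase-like protein of alveolar macrophages, was at 2.14, 2.77 and 1.46 at 72 h, against 2.13, 3.85 and 3.03 at 12 h. Its difference was 0.01 in A/J, against -1.08 in C57BL/6J and -1.58 in C3H/HeMs. MHC class II genes had a median of -0.01 over 8 members, among which H2-Eb1, a class II beta chain, was lower (-0.63 ± 0.19 SE). Red cell genes had the highest list median, 0.35 over 9 members, but it was 0.79, 0.14 and -0.05 by strain, and Klf1, the erythroid transcription factor, was at -1.56, -0.15 and -0.31 at 72 h, against -1.71, -0.68 and -1.13 at 12 h.

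Endothelium genes as a list differed little. Their median was 0.03 over 21 members. Among 20 counted, 5 were lower and 3 higher in all 3 strains (17.3% and 16.2% over all features). Ace, angiotensin-converting enzyme of lung capillaries, was at 2.13, 1.85 and 2.00 at 72 h, against 2.51, 2.13 and 2.57 at 12 h (-0.41 ± 0.12 SE). Ramp2 (-0.40 ± 0.12 SE) and Calcrl (-0.29 ± 0.10 SE), which together form an adrenomedullin receptor, were both lower in each strain. With quantile normalization the differences were smaller, at -0.27 for Ace, -0.26 for Ramp2 and -0.12 for Calcrl. Ddah1, which breaks down an inhibitor of nitric oxide synthase, was higher (0.70 ± 0.12 SE), at -0.68, -0.68 and 0.47 at 72 h, against -1.51, -1.23 and -0.24 at 12 h.

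The core clock genes gave a mixed picture with C3H/HeMs apart. Of 12 measured, 3 were lower and 1 higher in all 3 strains (17.3% and 16.2% over all features). The median was -0.08, with -0.05, 0.01 and -0.24 in the strains. Arntl, the clock activator BMAL1, was at 0.28, 0.32 and 0.87 at 72 h, against 0.12, 0.24 and -0.39 at 12 h, a difference of 1.26 in C3H/HeMs but of 0.15 and 0.08 in A/J and C57BL/6J. Hlf, a transcription factor of clock output, differed by -1.26 in C3H/HeMs, against 0.11 and -0.27 in the others. Per3, a period gene, was at 0.67, 0.47 and 0.03 at 72 h, against 0.99, 0.52 and 0.93 at 12 h, a difference of -0.90 in C3H/HeMs. Per3 was measured by 2 probes, and with single probes the difference was 0.14 for one of them.

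Nr1d2, a nuclear receptor that represses Arntl, also separated the strains, with 0.57, 0.25 and -0.83 by strain. Rora, which activates Arntl, was the only clock gene with an unadjusted p under 0.05 (10.1% over all features). It was at 0.29, -0.48 and 0.02 at 72 h, against 0.69, -0.17 and 0.55 at 12 h (-0.41 ± 0.11 SE). The remaining 7 measured clock genes had mean differences between -0.17 for Cry2 and 0.21 for Clock, each within 2 standard errors of 0. Whether the strains were killed at the same clock time at 72 h and 12 h was not tested, and time since irradiation and clock time cannot be told apart in these pools.

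The other genes with the smallest p in the higher direction have varied known roles. Gatm, the enzyme of the first step of creatine synthesis, was at 1.11, 0.16 and 0.78 at 72 h, against -0.40, -1.02 and -0.54 at 12 h, and was at least 2-fold higher in each strain with no overlap (1.34 ± 0.12 SE, 2.53-fold, limma adjusted p = 0.316). Cxcl15 was at 3.04, 2.60 and 3.59 at 72 h, against 2.16, 1.4 and 1.97 at 12 h, also with no overlap (1.24 ± 0.17 SE). Spon2, a secreted matrix protein known to bind microbes, had the largest mean difference of them, 1.51 ± 0.27 SE, from 0.94 in A/J to 2.27 in C3H/HeMs. Taf1c, a subunit of the initiation factor of RNA polymerase I (0.60 ± 0.11 SE), and Prss16, a serine protease of the thymus (0.60 ± 0.11 SE), had smaller and even differences.

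Among genes with the smallest p in the lower direction were several that are best known from other tissues. Nefm, a neurofilament chain of neurons, was at -4.07, -3.60 and -4.26 at 72 h, against -2.48, -1.98 and -2.53 at 12 h, with differences of -1.59, -1.62 and -1.73 and no overlap (-1.64 ± 0.11 SE, limma adjusted p = 0.263). Elavl4, a neuronal RNA-binding protein, was at -1.51, -1.75 and -1.47 at 72 h, against 0.006, -0.34 and -0.28 at 12 h (-1.37 ± 0.12 SE). Kif1a, a motor of axonal transport, was lower by a like amount in each strain (-0.78, -0.76 and -0.71) while its level lay near -3.01 in C57BL/6J at 72 h and near -0.99 in A/J. Hoxa10, a homeobox transcription factor, was at -3.65, -2.16 and -2.55 at 72 h, against -2.70, -1.0 and -1.52 at 12 h. Nefm, Kif1a, Hoxa10, Noxred1, Aurka, Wfdc18 and Kifc2 lay below the reference on all 6 arrays.

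Bnc1, Gcnt3 and Pde7b, of the same direction, lay above the reference on some arrays. Bnc1, the zinc finger protein basonuclin of basal epithelium, was at 0.18, 0.15 and -0.72 at 72 h, against 1.10, 1.03 and 0.41 at 12 h (-0.98 ± 0.12 SE). Gcnt3, a glycosyltransferase of mucins, was at -1.09, -0.62 and -1.39 at 72 h, against 0.60, 0.38 and -0.06 at 12 h (-1.34 ± 0.17 SE). Pde7b, a phosphodiesterase of cyclic AMP, was at 0.36, 0.28 and -0.38 at 72 h, against 1.33, 1.10 and 0.81 at 12 h (-1.0 ± 0.13 SE). None of these 3 had overlapping groups. Fam184b (-1.08 ± 0.11 SE), Wfdc18 (-0.87 ± 0.12 SE), Noxred1 (-1.41 ± 0.18 SE) and the kinesin gene Kifc2 (-0.76 ± 0.12 SE) complete the 15. Over the 30 genes of both directions, 18 had groups that did not overlap, a count the choice by small p favours, so nothing is read from it.

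The other lists had medians within 0.1 of 0. Interferon response genes had -0.07 over 22 members, with Trim25, a ubiquitin ligase of antiviral signalling, at -0.43 ± 0.11 SE. The Trim25 ratio on the C3H/HeMs array at 72 h was exactly 0. Heat shock genes had 0.03 over 21, with the cold-inducible RNA-binding proteins Cirbp (0.44 ± 0.12 SE) and Rbm3 (0.36 ± 0.11 SE) higher. The groups were apart for Cirbp. For Rbm3 they touched, with C57BL/6J at 72 h and A/J at 12 h both at -0.2919. Respiratory chain genes had 0.03 over 27, and cholesterol and fatty acid synthesis genes 0.07 over 16. In each of these lists 0 members had an unadjusted p under 0.05 (10.1% over all features). Adipocyte genes had -0.07 over 14, with -0.24, -0.08 and -0.14 by strain. Among 13 counted, 5 were lower and 0 higher in all 3 strains (17.3% and 16.2% over all features). Of the 14, 4 were lower and 0 higher with an unadjusted p under 0.05 (6.02% and 4.07% over all features). The adipocyte median was 0.02 without the A/J pair and -0.20 without the C3H/HeMs pair. Among them Lpl, lipoprotein lipase, was lower (-0.63 ± 0.15 SE). Muscle genes had 0.02 over 35 and keratinocyte genes 0.09 over 7.

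In C57BL/6J, whose 4 lung arrays were of like quality, the levels at 72 h and 12 h can be set beside those without irradiation and at 1 h, with 1 array per time and hence no test. Ccng1 was at -1.16 without irradiation, 0.01 at 1 h, 1.02 at 12 h and 0.51 at 72 h. Trp53inp1 was at 0.29, 1.69, 1.95 and 1.44 in that order, and Pmaip1 at 0.62, 1.37, 1.80 and 1.10. These p53 targets were thus highest at 12 h and at 72 h still lay above the unirradiated array. They have the smallest p of their list, a choice that favours a 12 h level above that at 72 h. Other members ran otherwise. Tnfrsf10b was at 0.51, 0.64, -0.0018 and 0.10, and Sesn1 at -0.22, -0.03, -0.53 and -0.38, both lowest at 12 h. Cdkn1a (1.09, 3.51, 3.54 and 3.32) and Mdm2 (0.15, 1.15, 1.15 and 1.12) were nearly level from 1 h on. Saa3 was at -2.96 without irradiation, -3.40 at 1 h, -0.70 at 12 h and -2.69 at 72 h, so its 72 h level lay near that of the C57BL/6J control. The strains were not alike in this. Unirradiated A/J lung was at 0.63, above its levels at 12 h (0.39) and 72 h (-1.99). Unirradiated C3H/HeMs lung was at -2.83, below its levels at 12 h (-1.21) and 72 h (-2.31). In both strains the control array differed in quality from the 12 h and 72 h arrays.

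Of the 15 genes named as higher at 72 h, 10 had their lowest C57BL/6J level at 12 h, 4 (Lst1, Spon2, Prss16 and Col1a1) without irradiation and 1 (Ccn1) at 1 h. These genes were chosen for a 72 h level above that at 12 h in every strain. That choice shuts out 72 h as the lowest time and favours a low 12 h level, so nothing is read from the count. Gatm was at -0.72 without irradiation, 0.35 at 1 h, -1.02 at 12 h and 0.16 at 72 h. Nr4a1 was at -0.47, 0.27, -0.81 and 0.24 in that order, and Cxcl15 at 1.41, 2.91, 1.4 and 2.60. In these 3 of the 10 genes the 72 h level lay near the 1 h level, and the 12 h level near or below that of the control. Ccl22 differed from all of these, at 1.03, 1.74, 1.08 and -0.29, with its lowest level at 72 h.

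**Figure D4:**
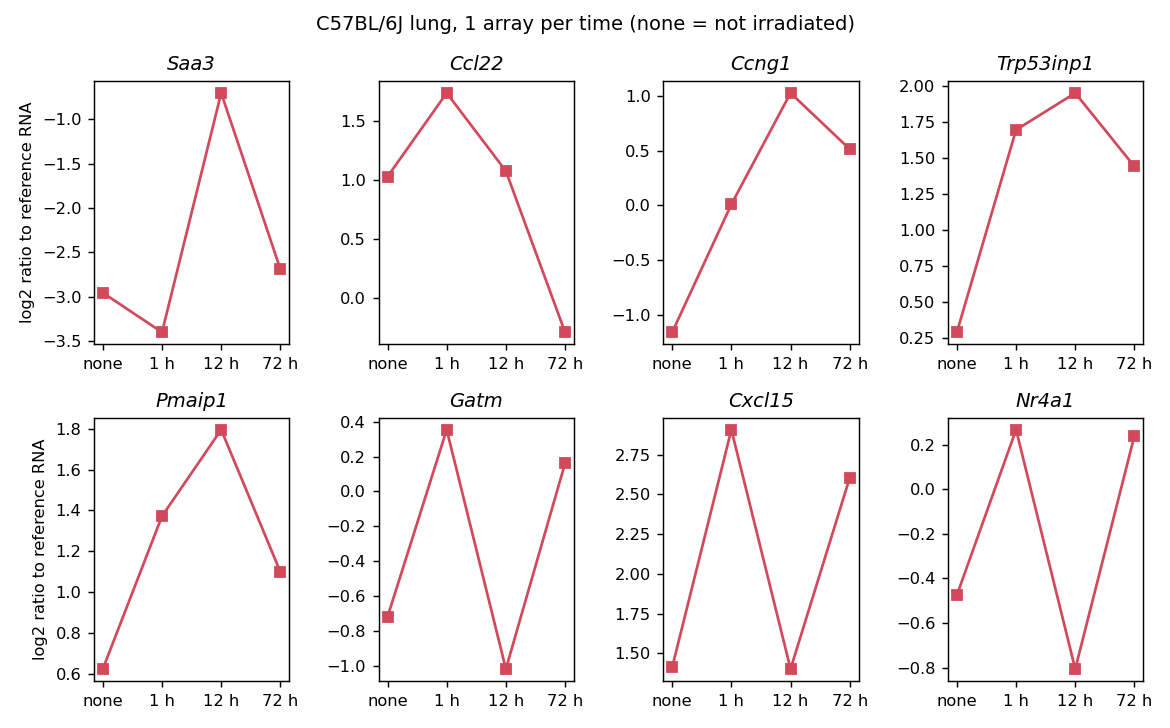
Log2 ratio of C57BL/6J lung to the reference RNA for 8 genes, from the unirradiated array on the left to 72 h on the right. Each point is 1 array, so there is no error bar. Times are evenly spaced on the axis and each vertical axis has its own range. Saa3, Ccng1, Trp53inp1 and Pmaip1 peak at 12 h, whereas Gatm, Cxcl15 and Nr4a1 have their lowest or nearly lowest level there.

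The same 2 times in skin gave a different set of values for most of these genes, though the difference between tissues passed for none. With limma on 12 arrays, 0 of 8750 features (0%) had an adjusted p under 0.05 for lung minus skin, and 730 (8.34%) an unadjusted p under 0.05. That count was 293 without the pairing and 338 without the C57BL/6J pairs. Skin had received a higher dose at another site, so tissue and dose cannot be told apart here. Saa3 was lower at 72 h in both tissues, by -1.82 in lung and -2.84 in skin, and p53 targets had list medians of -0.17 in lung and -0.27 in skin. Fbln5 was higher in both, with 0.59 in lung and 0.86 in skin, and so was Col1a1, with 0.58 in lung and 2.41 in skin.

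**Figure D5:**
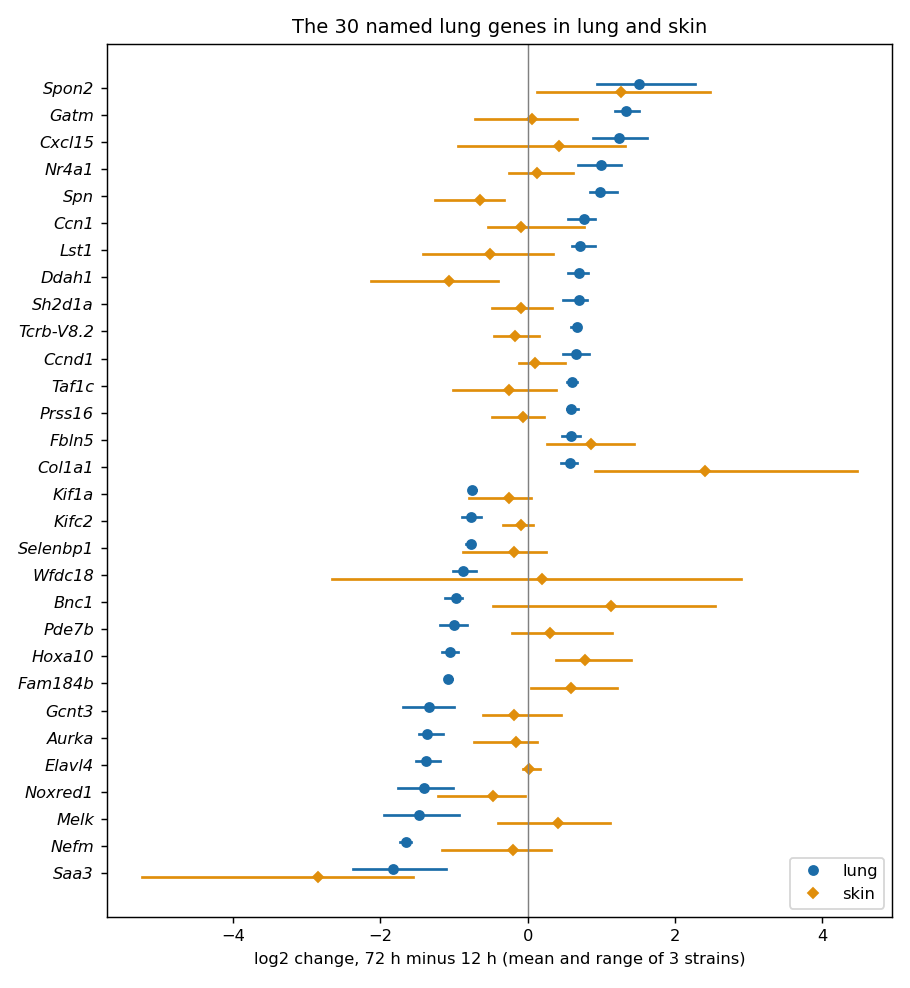
Log2 difference at 72 h minus 12 h for the 30 named genes, with lung (circles) above skin (diamonds) in each row, as the mean and range of 3 strains. Saa3 and Noxred1 lie left of 0 and Spon2, Fbln5 and Col1a1 right of 0 in both tissues over the whole range of strains, and the skin ranges of many other genes cross 0.

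Genes with the smallest p for the difference between tissues were picked among those alike in direction in all 3 lung pairs. That choice favours lung and skin values that are opposed or far apart, so nothing is read from their being so. In the lung-above-skin direction these were Spn (lung 0.99, skin -0.64), the matrix protein gene Emilin2 (0.44, -0.52), Ncf4, a subunit of the phagocyte oxidase (0.40, -0.78), Tnc (1.39, -1.16) and Klf2 (0.53, -0.40). In the other direction they were Krt10, a keratin of differentiated epidermis (lung -0.69, skin 1.06), Nup160 of the nuclear pore (-0.17, 1.5), Elavl4 (-1.37, 0.03), Mfap2, a protein of elastic microfibrils (-0.44, 0.90), and Hoxa10 (-1.05, 0.77). Krt10 lay far below the reference in lung at both times, at -4.94, -3.30 and -4.71 at 72 h, against -4.34, -2.60 and -3.94 at 12 h. Aurka had -1.36 in lung and -0.16 in skin, and T and NK cell genes had list medians of 0.23 in lung and -0.30 in skin, a difference that was not tested for the list.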

How the data were processed

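Per the submitters' processing notes the authors used Agilent Feature Extraction, whose version is not given in the sources used here. The deposited values are log10 ratios of Cy5 over Cy3, limited to ±2. Per the labels, Cy3 marked lung RNA and Cy5 that of skin, so the signs of lung ratios were turned to read sample over reference. Values were multiplied by 3.32 to give log2 ratios, centred on each array's median, and probes of a gene were averaged, which gave 8750 features from 9275 probes (6433 with 1 gene symbol, 381 with several, 2461 with none). Tests used limma 3.58.1 in R 4.3.3 with strain as a block (2 residual and 2.82 prior degrees of freedom, and 4 residual for lung minus skin), two-sided, with Benjamini-Hochberg adjustment over all features. Every SE given is the moderated one of limma, in which the spread of a feature is drawn toward that of all features. It is not the plain SE of the 3 paired differences. Fits were tested on simulated data.

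The members and gene lists were chosen with earlier results of these data known. Named genes are the 15 with the smallest p in each direction among those alike in all 3 strains (none passed), 4 per list by smallest p (12 for clock and p53 lists) and 5 per direction for lung minus skin. The replicate number is the strain, and deviations from group means correlated within a strain at 0.59 (A/J), 0.71 (C57BL/6J) and 0.52 (C3H/HeMs), so the pairing was kept. Alternatives were fits without the pairing, on all 12 lung arrays with and without the array set as a block, other scaling, single probes, features without ratios at 0 or the limit, robust moderation, and each strain left out.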

Additional observations from a re-analysis of the deposited data

Results flagged for a closer look

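For 11 of 37 genes set against skin, all 3 lung pairs differed in one direction between 72 h and 12 h and all 3 skin pairs in the opposite one, as did 356 of 7863 features. Of these 11, 9 were among the 10 genes chosen by a small p for lung minus skin, a choice that favours opposed values, so nothing is read from the count. The interaction test was run for each, and none passed (limma adjusted p between 0.402 and 0.539). The lung minus skin values of the log2 difference were 1.63 for Spn, 1.76 for Ddah1, 0.96 for Emilin2, 1.18 for Ncf4, 2.55 for Tnc and 0.93 for Klf2. They were -1.67 for Fam184b, -1.82 for Hoxa10, -1.75 for Krt10, -1.67 for Nup160 and -1.35 for Mfap2.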

How the results depend on the processing

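Under every alternative run, 0 features passed in lung and 0 for lung minus skin, and the lowest adjusted p of a named gene was 0.0988. With an unadjusted p under 0.05, lung features numbered 883 as reported, 184 with no replicate block (55 higher and 129 lower), 509 on all 12 lung arrays (199 and 310), 744 there with the array set as a block, and 536 to 855 with 1 strain left out. For lung minus skin they numbered 730, 293 with no replicate block, and 338 to 1026 with 1 strain left out. Of 139 named genes 6 turned in sign, all of them small or uneven. Cdkn1a was 0.040 with quantile normalization, Per3 0.14 and Dnajb4 0.016 with single probes. With 1 strain left out Bhlhe40 ran from -0.095 to 0.059, Per1 from -0.13 to 0.11 and Nr1d2 from -0.29 to 0.41, each turning without C3H/HeMs. Values moved by over 1.5 times for 11 named genes with quantile normalization, 4 with single probes, 1 with no centring, and 23, 16 and 24 without A/J, C57BL/6J and C3H/HeMs. With quantile normalization the medians of inflammatory, lung epithelium and muscle genes were 0.01, -0.06 and -0.04. The causes were not tested. Signal over background was not analysed here, so dim probes could not be told from others.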
